A study of Mus musculus with 8 samples.

Results

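Chchd2 and 7 further genes named for the coiled-coil-helix-coiled-coil-helix (CHCH) domain were followed in RNA that was pulled down with tagged ribosomes from Cck cells of the mouse hippocampus. The 8 members, Chchd1, Chchd2, Chchd3, Chchd4, Chchd5, Chchd6, Chchd7 and Chchd10, were taken by symbol from the 39017 genes of the count table. All 8 were among the 17654 genes that passed the filter on low counts. The family was selected on Chchd2, which had one of the smallest p-values of an earlier comparison of the genotypes in these same libraries. The genotype contrast is therefore given as a description for every member, and nothing is supported with it.

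Translating ribosome affinity purification (TRAP) recovers ribosomes that carry a tagged subunit, here L10-EGFP, together with the RNA bound to them. Mice of both groups carried a Cre driver at Cck and the L10-EGFP allele, so the tag marks cells in which that driver is or has been active. In the 5 libraries labelled cKO (conditional knockout) the mice were SMARCA3 fl/fl, a homozygous floxed allele of Hltf, the gene of the chromatin remodeller SMARCA3. In the 3 labelled WT (wild type) they were littermates that were not SMARCA3 fl/fl, and whether any of them carried a single floxed copy was not stated in the sources used here. Each library pooled 4 hippocampi, and ages, sexes and the relation of the pools to each other were not stated either. What a p-value measures here is the spread between these pools only. RNA from before the pull-down was not analysed here. In such libraries fewer cells of a type and less RNA per cell cannot be told apart.

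CHCH proteins are small and encoded in the nucleus, and most work in the mitochondrial intermembrane space. Many of them carry a twin CX9C motif, in which each helix has a pair of cysteines spaced by 9 other residues. Chchd4, known as Mia40, oxidises these cysteines into disulfide bonds, which traps the imported protein behind the outer membrane. Chchd2 and Chchd10 are paralogs that bind each other, and mutations of the human genes are linked to Parkinson's disease and to amyotrophic lateral sclerosis with frontotemporal dementia. Chchd2 can also act in the nucleus, where it promotes transcription of a subunit of cytochrome c oxidase with Rbpj. Chchd3 and Chchd6, also called Mic19 and Mic25, belong to MICOS, the complex that holds the junctions of the cristae. Chchd1 is part of the small subunit of the mitochondrial ribosome. Chchd7 is the mammalian relative of a yeast assembly factor of cytochrome c oxidase.

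The twin motif was found in the translated coding sequence of all 8 members. In Chchd2 it spans residues 116 to 146 of 153, with 9 residues between the cysteine pairs, and in Chchd10 it spans residues 98 to 128 of 138, also with 9 residues between the pairs. In Chchd7, a protein of 85 residues, it spans residues 16 to 47 with 10 residues between the pairs. The coding stretches of these 3 motifs are shown because Chchd2 and Chchd10 are the pair of closest relatives and because Chchd2 and Chchd7 were the members whose groups did not overlap. They are exonic, given on the coding strand from 5′ to 3′, with the 4 cysteine codons in capitals.
Chchd2: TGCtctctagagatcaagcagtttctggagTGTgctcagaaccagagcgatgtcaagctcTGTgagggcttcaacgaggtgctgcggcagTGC
Chchd10: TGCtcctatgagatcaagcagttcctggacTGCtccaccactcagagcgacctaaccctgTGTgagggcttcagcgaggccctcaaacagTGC
Chchd7: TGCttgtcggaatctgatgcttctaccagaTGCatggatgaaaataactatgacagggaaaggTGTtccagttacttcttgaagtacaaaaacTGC
Chchd2 and Chchd10 have the same base at 66 of the 93 positions of this stretch (71.0%), and 83 of 135 aligned residues of the whole proteins are identical (61.5%). Chchd3 and Chchd6, the MICOS pair, are less alike, with 84 of 210 aligned residues identical (40.0%) and 55 of 96 bases of the motif stretch (57.3%).

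Libraries held 31760155 to 61823651 counts. In the principal components of log2 CPM, a count scaled by edgeR to the size of its library, the first component (35.6% of the variance) set the library labelled cKO 5 apart from all others. The second (21.7%) set cKO 4 apart. Hltf was at 13.7, 8.39 and 9.87 CPM in WT 1, 2 and 3 and at 5.10, 4.49, 4.21 and 2.83 CPM in cKO 1, 2, 3 and 4. The library labelled cKO 5 had 11.4 CPM of Hltf, within the WT range and against its label. The log2 fold change of Hltf was -0.93 with all 8 libraries and -1.36 without the library labelled cKO 5. Those of Chchd1, Chchd2, Chchd3, Chchd5, Chchd6 and Chchd7, and the ratio of Chchd3 to Chchd6, are given with and without it. Counts over gene lists and sums of markers include it. Cck, at 415 to 837 CPM, and Cnr1, at 131 to 170 CPM, were present in every library. Slc17a7 of glutamatergic neurons ranged from 333 to 365 CPM in WT and from 439 to 548 CPM in cKO, without overlap. Gad2 of GABAergic neurons ranged from 79.0 to 97.2 CPM in WT and from 49.6 to 87.7 CPM in cKO. Gad1 ranged from 24.5 to 44.7 CPM in WT and from 15.3 to 50.2 CPM in cKO. The pull-downs thus hold RNA of both kinds of neuron.

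Levels per length compare the members with each other. They are means over libraries of both genotypes, so differences between the genotypes enter them. CPM was divided by the kilobases of annotated exon of each gene. Chchd2 had the highest level, 236 ± 52.6 CPM per kilobase (SD, n = 8 libraries of both genotypes). Chchd10 followed with 102 ± 12.1 and Chchd1 with 46.4 ± 5.72 CPM per kilobase. The MICOS members lay well below, with 11.7 ± 1.93 CPM per kilobase for Chchd6 and 10.8 ± 1.56 for Chchd3. The import oxidoreductase Chchd4 was at 9.23 ± 1.17 CPM per kilobase. Chchd5 at 4.32 ± 1.54 and Chchd7 at 3.55 ± 1.18 CPM per kilobase closed the order. In WT libraries alone Chchd7 (4.735 CPM per kilobase) lay above Chchd5 (3.885). Chchd2 and Chchd10 were at 293 and 109 CPM per kilobase in WT and at 202 and 98.0 in cKO.

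Neighbours in this order were compared within libraries by an exact sign-flip permutation test of log2 levels, two-sided, with Benjamini-Hochberg adjustment over the 7 pairs; the order itself was taken from the same libraries. By exon length, Chchd2 exceeded Chchd10 by 1.19 ± 0.36 on the log2 scale (SD, n = 8), a 2.28-fold difference in level, in 8 of 8 libraries (exact p = 0.00781, adjusted p = 0.0137). The steps from Chchd10 to Chchd1 (1.14 ± 0.18 on the log2 scale), from Chchd1 to Chchd6 (1.99 ± 0.21) and from Chchd4 to Chchd5 (1.22 ± 0.74) were also in the same direction in 8 of 8 libraries, each with the same exact p, the smallest this design allows. The other 3 pairs of neighbours did not pass the adjusted threshold. Chchd6 lay above Chchd3 in 6 of 8 libraries by 0.12 ± 0.33 (adjusted exact p = 0.401), Chchd3 above Chchd4 in 7 of 8 by 0.22 ± 0.23 (adjusted exact p = 0.0547), and Chchd5 above Chchd7 in 4 of 8 by 0.23 ± 0.74 (adjusted exact p = 0.430). The 3 leading places were also held when lengths of 1 coding transcript or of the coding sequence were used, and below them the order depended on the length. The size of the steps depended on it too. Chchd2 and Chchd10 were at 586 and 108 CPM per kilobase by length of 1 coding transcript, and at 1168 and 388 by coding length. By coding length Chchd4, with a long transcript and a short coding sequence, was at 115 CPM per kilobase beside Chchd1 at 119.

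**Figure D1:**
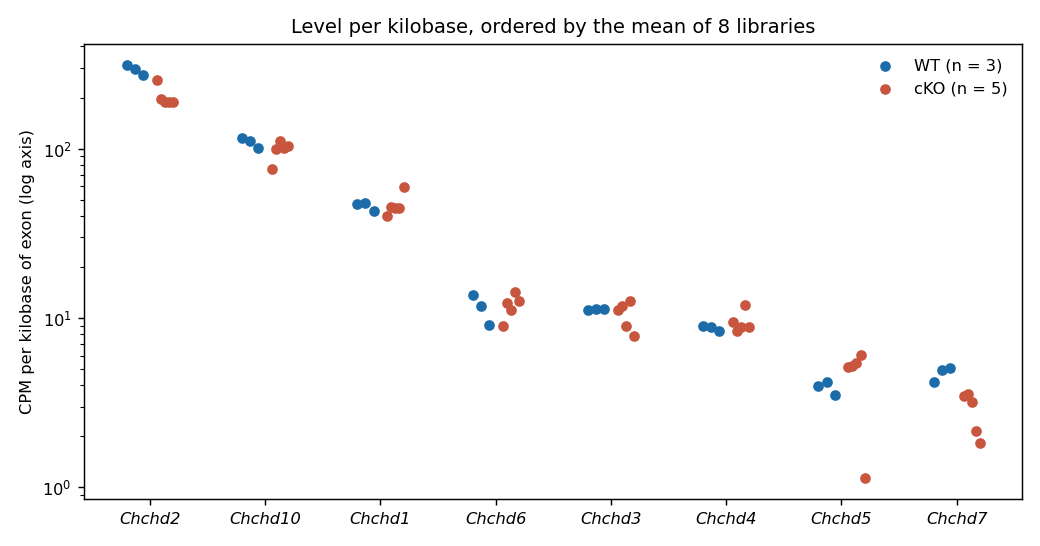
Level of each member in CPM per kilobase of exon (log axis), ordered by the mean over 8 libraries, with each point 1 library. Chchd2, Chchd10 and Chchd1 are separated from the other 5 members in all libraries, and the single low point of Chchd5 is the library labelled cKO 5.

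Chchd2 (ENSMUSG00000070493) lies on mm10 chr5:129881156-129887470, minus strand, and its 4 exons sit inside the span of Phkg1 without sharing an exon base with it. In WT 1, 2 and 3 it was at 709, 666 and 618 CPM, and in cKO 1, 2, 3 and 4 at 573, 445, 429 and 425 CPM. The library labelled cKO 5 had 424 CPM. Every WT library was thus above every cKO library, with cKO 1 nearest to WT and the other 4 cKO libraries close together. WT had a mean of 664 ± 45.8 CPM (SD, n = 3) and cKO one of 459 ± 64.1 CPM (SD, n = 5), a difference of -30.9%. This gave a log2 fold change of -0.53 (SE 0.11, 95% interval -0.78 to -0.29), with an adjusted p of 0.470 by edgeR's quasi-likelihood test and Benjamini-Hochberg adjustment over all genes. Chchd2 therefore was not called, although it ranked 20 of 17654 by p. The difference was -0.51 without the library labelled cKO 5 and -0.63 (SE 0.08) without cKO 1, where the edgeR adjusted p was 0.0867. DESeq2 did call it, with a log2 fold change of -0.53 and an adjusted p of 0.0126, as 1 of 40 genes called lower (0.32% of the 12510 genes to which DESeq2 gave an adjusted p). Over 20 alternative settings the log2 fold change stayed between -0.63 and -0.42.

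The sequence of Chchd2 is repeated elsewhere in the mouse genome, which bears on what its count means. The table holds 8 other genes whose transcript is at least 80% identical to the Chchd2 coding sequence over the aligned bases, and 5 of them had 1000 or more counts over the 8 libraries. The remaining 3 had at most 11. Of the 5, 3 are annotated as processed pseudogenes, Gm12350 (chr4:34485832-34486293), Chchd2-ps (chr4:148068031-148068492) and Gm4995 (chrX:142533439-142533870), and Gm6222 (chrX:103762917-103763545) as a transcribed processed pseudogene. Zbed5 (chr5:129895723-129903623), next to Chchd2 on the opposite strand, is annotated as protein coding, and 451 bases of its transcript of 2492 align to the Chchd2 coding sequence. Gm12350 differs from Chchd2 at 5 of 459 aligned bases (98.9% identical), Chchd2-ps at 6 (98.7%), Zbed5 at 7 of 451 (98.4%), Gm6222 at 12 of 434 (97.2%) and Gm4995 at 26 of 410 (93.7%). In Zbed5 an unbroken run of 402 bases is the same as in the Chchd2 transcript, and in Gm12350 a run of 243 bases. Over the motif stretch printed above, Gm12350 and Zbed5 do not differ from Chchd2 at any base. The others are shown with their differences from Chchd2 in capitals, to show how little separates a read of one gene from a read of another.
Chchd2-ps: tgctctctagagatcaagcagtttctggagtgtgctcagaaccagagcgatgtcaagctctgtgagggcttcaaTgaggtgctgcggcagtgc
Gm6222: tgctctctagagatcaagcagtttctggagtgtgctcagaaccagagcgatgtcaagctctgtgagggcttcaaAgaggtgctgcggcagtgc
Gm4995: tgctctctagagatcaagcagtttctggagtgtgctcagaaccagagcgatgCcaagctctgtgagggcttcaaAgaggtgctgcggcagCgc

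The copies followed Chchd2 from library to library. Zbed5 was at 209, 185 and 169 CPM in WT 1, 2 and 3, at 173, 135, 126 and 121 CPM in cKO 1, 2, 3 and 4 and at 125 CPM in the library labelled cKO 5. Gm12350 was at 150, 154 and 137 CPM in WT and at 134, 105, 99.2 and 101 CPM in cKO 1, 2, 3 and 4, with 101 CPM in the library labelled cKO 5. As with Chchd2, cKO 1 was the cKO library nearest to WT for both copies, and only for Zbed5 did it reach into the WT range. Taken against the count of Chchd2 in the same library, the count of Zbed5 was 27.4 to 30.3%, of Gm12350 21.2 to 23.7%, of Gm6222 12.5 to 13.4%, of Chchd2-ps 7.98 to 9.10% and of Gm4995 3.73 to 4.37%. These shares thus moved little in libraries where Chchd2 itself ranged from 424 to 709 CPM. Summed, the 5 copies had 77.4 ± 2.15% (SD, n = 8) of the Chchd2 count, with means of 75.4% in WT and 78.6% in cKO. Their log2 fold changes were -0.46 for Zbed5, -0.45 for Gm12350, -0.51 for Gm6222, -0.47 for Chchd2-ps and -0.52 for Gm4995, none of them called by edgeR (adjusted p 0.480 to 0.499, Benjamini-Hochberg). DESeq2 called Gm6222 (adjusted p = 0.0387) and none of the other 4 (0.062 to 0.102). Adding the counts of the 7 genes at least 90% identical to those of Chchd2 gave a log2 fold change of -0.51 (SE 0.11, edgeR adjusted p = 0.485, Benjamini-Hochberg). Reads cannot be reassigned between these genes from a count table, so the level of Chchd2 and of each copy is uncertain, and the part of shared reads in the values was not tested.

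**Figure D2:**
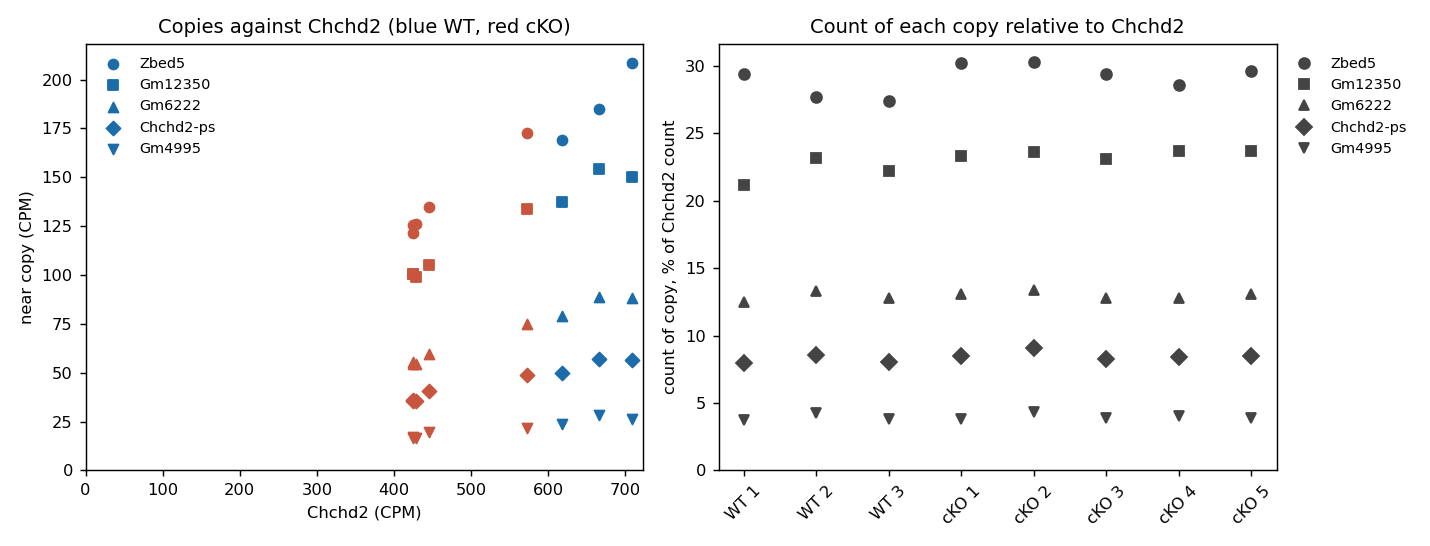
Left, CPM of 5 near copies against CPM of Chchd2, 1 point per library (blue WT, red cKO); right, count of each copy as a percentage of the Chchd2 count in the same library, where cKO 5 is the library labelled cKO 5. Each copy keeps a narrow band, such as 27.4 to 30.3% for Zbed5, while Chchd2 ranges from 424 to 709 CPM.

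Genes whose log2 CPM was most like that of Chchd2 over the 8 libraries were ranked by Pearson's r among 6902 genes with a mean of at least 16 CPM, without predicted genes and genes with no symbol. They were Zbed5 (0.986) and Chchd2-ps (0.984), both near copies, then Rheb, a small GTPase that activates mTORC1 (0.977), Phax, an adaptor of RNA export from the nucleus (0.968), and Arl8b, a GTPase of lysosome transport (0.966). On deviations from the group means, which remove the genotype difference, Zbed5 was again first (0.984). It was followed by Tmed7, a cargo receptor of the secretory pathway (0.973), the pseudogene Ppp1r2-ps6 (0.962), Chchd2-ps (0.951) and the chaperone Hspa8 (0.950). Without cKO 1 these deviations gave an r of 0.976 for Zbed5, 0.820 for Chchd2-ps, 0.832 for Ppp1r2-ps6, 0.817 for Tmed7 and 0.578 for Hspa8 over 7 libraries. Rheb, Phax and Arl8b had an r of 0.923, 0.911 and 0.862 on deviations over the 8 libraries. Without cKO 1 theirs was 0.714, 0.89 and 0.226. Of the family, Chchd7 had the highest r with Chchd2 over the 8 libraries (0.798), and it too is lower in all cKO than in all WT libraries; on deviations from the group means its r was 0.405, and 0.052 without cKO 1. Over the 8 libraries the r of log2 CPM was 0.354 for Chchd3, 0.1 for Chchd5, 0.077 for Chchd10, -0.265 for Chchd1, -0.293 for Chchd6 and -0.318 for Chchd4. Chchd5 and Chchd7 lie below 16 CPM on average and were not in the ranking. These values describe 8 libraries that share the genotype groups.

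Chchd10 (ENSMUSG00000049422, chr10:75933130-75937747, plus strand), the paralog, had overlapping groups. It was at 181, 175 and 158 CPM in WT 1, 2 and 3, at 119, 158, 174 and 158 CPM in cKO 1, 2, 3 and 4 and at 162 CPM in the library labelled cKO 5. In cKO 1, the cKO library with the most Chchd2, Chchd10 was lowest, while in WT both paralogs were highest in WT 1 and lowest in WT 3. The deviations of the 2 paralogs from their group means had an r of -0.742 over the 8 libraries, which rests on cKO 1: without it the sign turned, to 0.626 over 7 libraries. The means were 171 ± 11.7 CPM in WT and 154 ± 20.7 CPM in cKO (SD, n = 3 and 5), with a log2 fold change of -0.15 (SE 0.12, 95% interval -0.42 to 0.12, edgeR adjusted p = 0.771, Benjamini-Hochberg). Without cKO 1 it was -0.07, and with the correction for GC content and length -0.26 (SE 0.09, edgeR adjusted p = 0.602, Benjamini-Hochberg). Chchd10 shares 155 exon bases with Mmp11 (0 to 0.287 CPM) and 25 with Gm867, both on the opposite strand. Gm867 was at 24.9 to 28.7 CPM in WT and 16.6 to 22.3 CPM in cKO, a small count beside that of Chchd10, and the strandedness of the counting was not given.

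Chchd7 (ENSMUSG00000042198, chr4:3938888-3951046, plus strand) was the other member whose groups did not overlap. It was at 16.9, 20.1 and 20.7 CPM in WT 1, 2 and 3, at 14.1, 14.4, 12.97 and 8.79 CPM in cKO 1, 2, 3 and 4 and at 7.39 CPM in the library labelled cKO 5. All 5 cKO libraries were below all WT libraries, and the lowest were cKO 4 and the library labelled cKO 5, the pair that also stood apart across all genes. Mean levels were 19.2 ± 2.02 CPM in the 3 WT and 11.5 ± 3.21 CPM in the 5 cKO libraries (SD). The genotypes differed by -0.74 on the log2 scale (SE 0.24, 95% interval -1.26 to -0.22). The edgeR adjusted p was 0.499 (Benjamini-Hochberg), and DESeq2 gave an adjusted p of 0.134. It was -0.62 without the library labelled cKO 5 and -0.48 (edgeR adjusted p = 0.413) in the 6 libraries numbered 1 to 3, which also lack cKO 4. Chchd7 rests on 272 to 1008 counts per library, against 13753 to 33439 for Chchd2.

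Chchd5 (ENSMUSG00000037938, chr2:129129700-129134134, plus strand) was split by 1 library. It was at 6.86, 7.25 and 6.02 CPM in WT 1, 2 and 3 and at 8.85, 8.998, 9.35 and 10.5 CPM in cKO 1, 2, 3 and 4, while 72 counts gave 1.96 CPM in the library labelled cKO 5. Those 4 cKO libraries were above all WT libraries, and the fifth was below them all. With all 8 libraries the log2 fold change was 0.24 (SE 0.42, 95% interval -0.69 to 1.17, edgeR adjusted p = 0.912, Benjamini-Hochberg). Without the library labelled cKO 5 it was 0.48 (SE 0.19), with an unadjusted edgeR p of 0.0296 and a Benjamini-Hochberg adjusted p of 0.529. Chchd5 was the least counted member in that library.

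The MICOS pair had overlapping groups and similar ranges. Chchd3 (ENSMUSG00000053768, chr6:32790976-33060260, minus strand) was at 32.5, 32.8 and 32.6 CPM in WT and at 32.2, 34.4, 26.04 and 36.8 CPM in cKO 1, 2, 3 and 4, with 22.8 CPM in the library labelled cKO 5. The WT libraries were close together (SD 0.153 CPM), and the cKO libraries spread to both sides of them. Chchd6 (ENSMUSG00000030086, chr6:89383146-89595652, minus strand) was at 34.3, 29.6 and 23.0 CPM in WT and at 22.7, 30.9, 28.3 and 36.2 CPM in cKO 1, 2, 3 and 4, with 32.0 CPM in the library labelled cKO 5. Its WT range lay inside its cKO range. The log2 fold changes were -0.10 (SE 0.17, 95% interval -0.46 to 0.27) for Chchd3 and 0.05 (SE 0.18, 95% interval -0.35 to 0.45) for Chchd6 (edgeR adjusted p = 0.909 and 0.963, Benjamini-Hochberg). Without the library labelled cKO 5 these were -0.02 for Chchd3 and 0.03 for Chchd6. The log2 ratio of their counts, which does not depend on scaling, was 0.19 ± 0.29 (SD, n = 3) in WT and 0.015 ± 0.365 (SD, n = 5) in cKO. The difference of -0.18 was smaller than the spread within either group (exact permutation p = 0.5, two-sided, over 56 splits, of which the smallest possible is 0.0179). Leaving out 1 library moved it from -0.31 without WT 1 and -0.30 without cKO 1, the latter more than the SD of either group, to -0.05 without the library labelled cKO 5 and -0.02 without WT 3 (exact permutation p 0.286 to 0.857 over all 8 omissions). It was -0.01 without both cKO 4 and the library labelled cKO 5.

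Chchd4 (ENSMUSG00000034203, chr6:91462172-91473546, minus strand), the oxidoreductase of twin CX9C cysteines, was at 46.6, 45.7 and 43.5 CPM in WT. The cKO libraries 1, 2, 3 and 4 had 49.4, 43.7, 46.1 and 62.2 CPM, with 46.1 CPM in the library labelled cKO 5. Only cKO 4 lay well above the rest. The log2 fold change was 0.13 (SE 0.14, 95% interval -0.17 to 0.43, adjusted p = 0.841 by edgeR and Benjamini-Hochberg), and 0.03 without cKO 4. Chchd1 (ENSMUSG00000063787, chr14:20703006-20704425, plus strand), of the mitochondrial ribosome, was at 42.7, 43.2 and 39.0 CPM in WT and at 36.1, 41.1, 40.5 and 40.6 CPM in cKO 1, 2, 3 and 4. The library labelled cKO 5 was again the one apart, here on the high side at 53.8 CPM. The log2 fold change of Chchd1 was 0.02 (SE 0.14, 95% interval -0.29 to 0.34, adjusted p = 0.980 by edgeR and Benjamini-Hochberg), and -0.08 without that library.

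**Figure D3:**
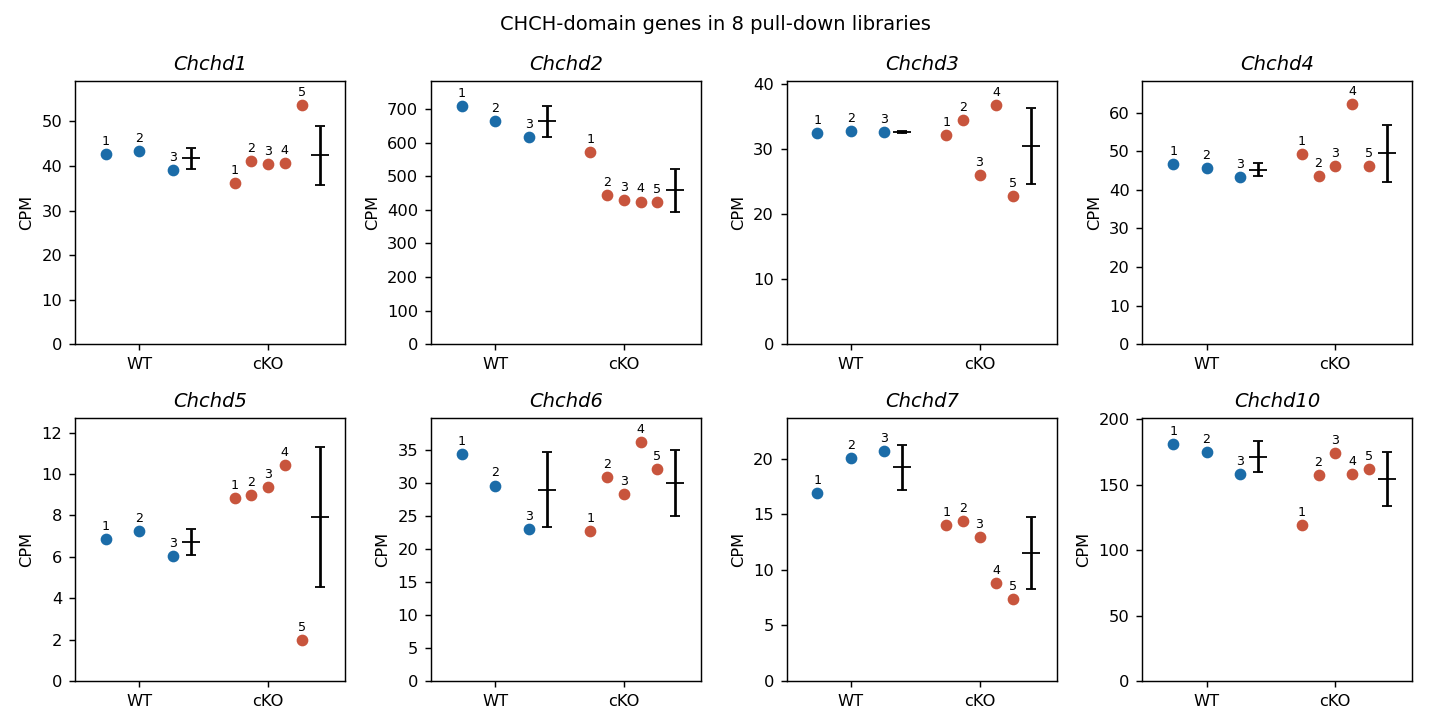
CPM of the 8 members in WT (blue) and cKO (red) libraries, numbered by replicate, with the mean and SD of each group in black; 5 is the library labelled cKO 5. Chchd2 and Chchd7 show no overlap of the groups, and in Chchd5 the library labelled cKO 5 lies at 1.96 CPM below all others.

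Across the family, 2 of 8 members had all cKO libraries below all WT libraries, Chchd2 and Chchd7, and none had them all above. Among all genes tested, 3.82% had cKO below WT without overlap, and 596 of 17654 had cKO above WT without overlap. The same 2 members had an unadjusted edgeR p under 0.05 and were lower in cKO, against 3.70% of all genes lower and 5.02% higher at that p. The count includes Chchd2, on which the family was selected, so nothing is read from it. By the edgeR adjusted p 0 of 8 members and 0 of 17654 genes were called (0.0%), where 886 genes had an unadjusted p under 0.05 and more RNA in cKO and 654 less, and DESeq2 called 68 higher and 40 lower. Of the 8 log2 fold changes 4 were below 0, and their median was -0.04, beside 0.02 over all genes tested. The intervals of the other 6 members included 0. The sign changed under at least 1 alternative setting for Chchd1, Chchd3 and Chchd6, and under none of those run for Chchd2, Chchd4, Chchd5, Chchd7 and Chchd10.

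**Figure D4:**
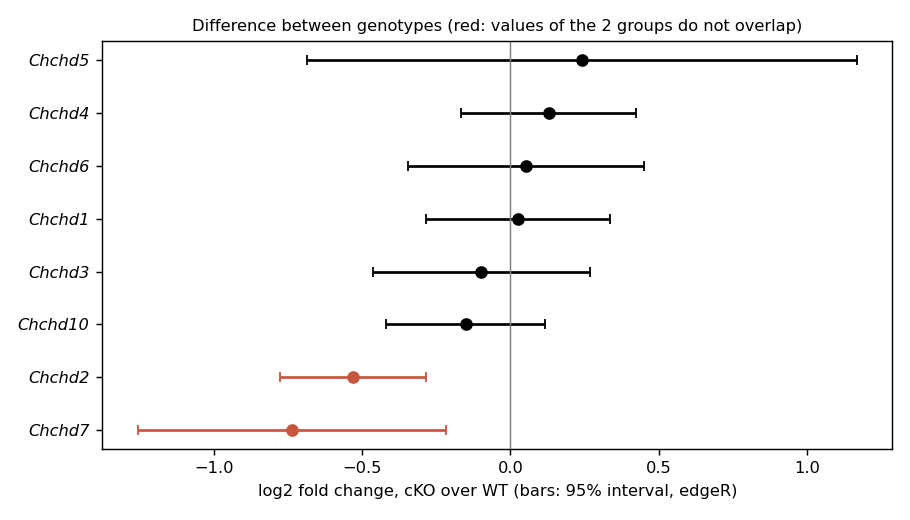
Log2 fold change of each member, cKO over WT, with its 95% interval from edgeR; red marks members whose WT and cKO libraries do not overlap. Only the intervals of Chchd2 (-0.78 to -0.29) and Chchd7 (-1.26 to -0.22) leave out 0.

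Genes that work with the family were counted from lists of their roles, and no gene of any list was called by edgeR, nor was any of the 17654 genes tested. Among all genes, 5.02% were higher and 3.70% lower at an unadjusted edgeR p under 0.05. Without overlap of the groups, 596 of 17654 genes were higher and 3.82% lower. The list counts are given beside these shares as a description. Of 13 other twin-CX9C proteins tested, 1 was lower at an unadjusted p under 0.05 and 0 were higher, and the median log2 fold change was -0.06. That gene was Cox17, the copper chaperone of cytochrome c oxidase, at 54.8, 57.3 and 53.5 CPM in WT and 44.9, 41.9, 37.6 and 45.3 CPM in cKO 1, 2, 3 and 4, with 45.3 CPM in the library labelled cKO 5. Its groups, alone in this list, did not overlap (log2 fold change -0.36, SE 0.11, edgeR adjusted p = 0.499, Benjamini-Hochberg). Of the 8 genes of the disulfide relay and the small Tim chaperones, 1 was at that p, Timm9 (-0.34), and the median was -0.09. The groups of all 8 genes overlapped.

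Among 10 MICOS and outer-membrane partners the median was -0.11, and only 1, Apoo, the MICOS subunit Mic26, was at the unadjusted p under 0.05. It was at 89.6, 99.9 and 99.7 CPM in WT and at 86.9, 84.0, 87.0 and 77.9 CPM in cKO 1, 2, 3 and 4, with 68.8 CPM in the library labelled cKO 5, so that the groups did not overlap (log2 fold change -0.25, SE 0.11, edgeR adjusted p = 0.562, Benjamini-Hochberg). Of 29 proteins in the small mitochondrial ribosomal subunit, the complex of Chchd1, 2 were higher at that p and 4 were lower (all genes 5.02% and 3.70%), with a median of -0.07. Without overlap of the groups 5 of 29 were lower (all genes 3.82%) and 1 was higher (all genes 596 of 17654). The 3 with the smallest p had log2 fold changes of -0.60 for Mrps35, 0.51 for Mrps27 and -0.34 for Mrps12, each without overlap of the groups.

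Of the 14 genes of inner-membrane quality control and shape counted here none was at that p or had groups without overlap, and the median was -0.04. Of 16 tested genes of the mitochondrial stress response, 1 was higher and 2 were lower at that p (all genes 5.02% and 3.70%), with a median of 0.02. Without overlap of the groups 1 of them was higher and 2 were lower (all genes 596 of 17654 and 3.82%). Atf4, the transcription factor of that response, was at 127, 127 and 112 CPM in WT and at 96.1, 92.4, 107 and 97.2 CPM in cKO 1, 2, 3 and 4, with 102 CPM in the library labelled cKO 5. All cKO libraries were below WT (log2 fold change -0.30, SE 0.10, edgeR adjusted p = 0.499, Benjamini-Hochberg), while Cebpb (-0.82) overlapped and Aldh1l2, a mitochondrial folate enzyme, was higher (3.03) at 0.106 to 4.02 CPM. Of 4 genes listed as nuclear partners or target of Chchd2, 3 were tested and 1 did not pass the low-count filter. Rbpj, with which Chchd2 acts, had a log2 fold change of -0.32. Cox4i1, one of the subunits of cytochrome c oxidase, had one of 0.28. Both were at an unadjusted edgeR p under 0.05 with overlapping groups. Cox4i1 is not taken here as the subunit that Chchd2 promotes, and a response of either gene to Chchd2 was not tested. The median of the 3 tested genes was 0.09.

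**Figure D5:**
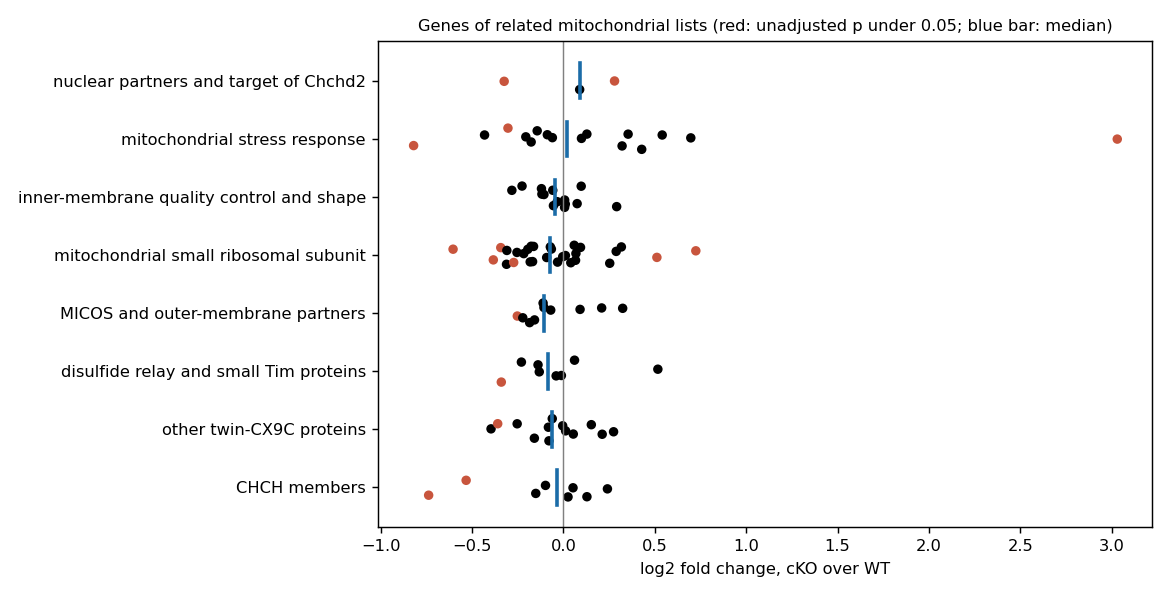
Log2 fold change, cKO over WT, of the members and of genes in 7 related lists, with each point 1 gene, red at an unadjusted edgeR p under 0.05, and a blue bar at the median. List medians lie between -0.11 and 0.09, and the isolated point at 3.03 is Aldh1l2, at 0.106 to 4.02 CPM.

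Summed markers of 3 kinds of cell were higher in all cKO than in all WT libraries, and their part in the differences of Chchd2 and Chchd7 was not tested. The summed level of 10 oligodendrocyte markers was 71.4 to 75.8 CPM in WT and 83.8 to 107 CPM in cKO, and that of 5 markers of oligodendrocyte precursors 3.09 to 4.08 and 5.37 to 9.10 CPM, neither with overlap. The sum of 5 glutamatergic markers was 7270 to 7760 CPM in WT and 7860 to 11900 CPM in cKO, also without overlap. A sum mostly follows its most abundant markers. Taken singly, 3 of 10 oligodendrocyte, 1 of 5 precursor and 3 of 5 glutamatergic markers were higher without overlap (all genes 596 of 17654). In these lists 0 oligodendrocyte, 1 precursor and 1 glutamatergic marker had a log2 fold change below 0. The sums of 8 astrocyte markers (312 to 418 and 318 to 494 CPM), 6 markers of Cck interneurons (652 to 847 and 795 to 1070 CPM) and 4 GABAergic markers (144 to 187 and 110 to 198 CPM) overlapped. Those of 8 microglial (4.28 to 6.61 and 2.23 to 5.91 CPM), 7 vessel (54.2 to 72.6 and 20.2 to 85.9 CPM) and 5 choroid plexus markers (27.8 to 37.6 and 25.3 to 73.3 CPM) overlapped as well. Listed markers at 0 in at least 1 library were Opalin, Aldh1l1, Tmem119, Aif1, C1qa, C1qb, C1qc, Cldn5, Cdh5, Vtn, Folr1, Clic6 and Aqp1. All of these belong to the oligodendrocyte, astrocyte, microglial, vessel and choroid plexus lists, and no listed marker of neurons was at 0. Across 7472 genes the log2 fold change also followed GC content (Spearman's rho 0.322, over genes, which are not independent replicates) and transcript length (0.214). With a correction of both, the log2 fold change was -0.50 for Chchd2 and -0.76 for Chchd7.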

How the data were processed

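RNA from 8 TRAP libraries (3 WT, 5 cKO) was analysed from the deposited table of raw counts per Ensembl gene, which the authors made with STAR 2.5.3a and HTSeq on mm10, per the submitters' processing notes. Annotation release, strandedness and filters are not given in the sources used here. Symbols, positions and lengths came from GENCODE for the same build. The members and lists were chosen with earlier results of these data known.

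Counts were tested with edgeR 4.0.16 (R 4.3.3; TMM scaling, filterByExpr, robust quasi-likelihood, 2-sided, Benjamini-Hochberg over 17654 genes, called at an adjusted p under 0.05), and the procedure was tested on simulated data. CPM uses TMM-scaled totals. Totals of 31760155 to 61823651 counts per library set the counting precision. Alternatives were DESeq2 1.42.0, limma 3.58.1 (voom), other scalings and filters, a correction for GC content and length, each library left out, and the replicate number as a block. Near copies were found with BLAST 2.17.0 (at least 100 aligned bases and 80% identity), and identities recomputed without gaps with Biopython 1.88. The log2 ratio used an offset of 0.5 counts.

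Named genes are the members, Hltf, near copies and overlapping genes, up to 3 genes per list with the smallest p under 0.05, and the 5 most like Chchd2 by each measure (predicted genes left out). One gene of a list is not reported here and was left out of its counts. Whether a shared replicate number pairs libraries was not settled here.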

Additional observations from a re-analysis of the deposited data

Results flagged for a closer look

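Within the 5 cKO libraries, 1 library lay far from the other 4 in 7 of 14 values looked at. A nominal rate of 1 in 20 would give 0.7 of 14. The share of all genes with such a library is not given, and cKO 4 and the library labelled cKO 5 stood apart across all genes. The count is therefore a description only. The values are not independent of each other, since the copies of Chchd2 follow Chchd2.

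In cKO 1, Chchd2 was at 573 CPM while the remaining cKO libraries had 424 to 445 CPM (gap to the nearest 0.863 of the whole range). The same library was the far one for 3 copies of Chchd2, with Zbed5 at 173 CPM (the others 121 to 135, gap 0.737), Gm12350 at 134 CPM (99.2 to 105, gap 0.831) and Gm6222 at 75.0 CPM (54.5 to 59.6, gap 0.749).

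In the library labelled cKO 5, Chchd5 was at 1.96 CPM against 8.85 to 10.5 CPM in the other cKO libraries (gap 0.811), and Chchd1 was at 53.8 CPM against 36.1 to 41.1 CPM (gap 0.720). Hltf was at 11.4 CPM there, against 2.83 to 5.10 CPM in the other cKO libraries (gap 0.737).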

How the results depend on the processing

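Genes called higher and lower numbered 0 and 0 by edgeR with all 8 libraries. They numbered 2 and 0 without a low-count filter, with at least 1 CPM in 3 libraries or at an adjusted p under 0.1, 1 and 0 with the GC and length correction, 5 and 5 in the 6 libraries numbered 1 to 3, 3 and 1 with limma-voom, and 68 and 40 with DESeq2. Chchd2 was below 0 in all 20 alternatives (-0.63 to -0.42), and only DESeq2 called it (-0.53). Libraries of the 2 genotypes with the same number had correlations of deviations from the group means of -0.0825, 0.0536 and -0.165. With 3 libraries per group these values cannot exclude a pairing. With the replicate block in 6 libraries Chchd2 was at -0.48, Chchd1 at -0.0945 and Chchd6 at -0.0839, with 0 genes called, and with block and GC correction 1 gene was called higher, Chchd3 was at 0.0023 and Chchd6 at -0.0889. Of 153 comparisons of member fold changes, 139 kept direction and side of the threshold and 13 changed sign, all in Chchd1, Chchd3 and Chchd6, none of them called. Leaving out 1 library gave -0.079 to 0.0775 for Chchd1 and -0.09 to 0.19 for Chchd6. In the 6 libraries without block they were at -0.0931 and -0.0897. Chchd1 was at -0.03 by limma-voom, and with the GC and length correction Chchd3 was at 0.0087 and Chchd6 at -0.0252. The cause of these sign changes was not tested. The order of levels kept 6 of 8 places in WT alone, 5 by transcript length and 3 by coding length. Chchd5 and Chchd7 had the smallest counts, 72 and 272 in the library labelled cKO 5. That library held 38776329 counts in all, more than WT 1 (37239119) and cKO 3 (31760155). The level of Chchd2 is uncertain because of its near copies, and the part of shared reads was not tested.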
